A study of Mesocricetus auratus with 9 samples.

Results

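The 100 most abundant polyadenylated transcripts of Syrian hamster (Mesocricetus auratus) liver were followed through 3 stages of the hibernation cycle. Abundance was measured as CPM, the read count of a gene divided by the total count of its library and multiplied by 1000000. The members were chosen by their mean CPM over all 9 libraries, as the 100 highest of 17090 genes in the count table, and all 100 entered the statistical model, which tested 12780 genes. A gene that is high in 1 or 2 stages can pass this rule through them. The members at ranks 44, 72, 79 and 93 had summer euthermic means below the overall mean of the rank 100 member. Rank 89 had torpor late and arousal early means below it. These are examples and not a full list. Differences between stages are therefore not fully independent of the choice. A high CPM reflects both the number of transcripts and their length, so the order of the genes is one of sequenced counts and not of molecules.

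There were 3 animals in each stage, with 1 liver library from each. Summer euthermic animals were outside hibernation, with a mouth temperature at death of 35.7 ± 0.5 °C. Torpor late animals were in torpor at 9.0 ± 0.9 °C. In arousal early, torpid animals were handled to wake them once a torpor bout had run past 3 days, and they stood at 35.0 ± 2.1 °C. The labels do not say what these spreads are. All hibernating animals had been held in the dark, and every liver was flushed with salt solution and frozen. Strain, sex and age of the animals are not given in the sources used here. In the main model, p-values set a difference between stages against the spread between animals within stages. That spread was estimated over all 9 libraries, with 3 animals a stage.

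The liver is known for devoting much of its messenger RNA to few products. Hepatocytes make most proteins of the blood plasma, among them albumin, apolipoproteins and clotting factors, and they also carry abundant transcripts for metabolic enzymes. In torpor, metabolism, transcription and translation slow down as the body cools, and an arousal brings the animal back to a high body temperature within hours while hibernation goes on. Syrian hamsters hibernate facultatively, in response to cold and short days. None of this background was used to choose or to name the genes: the table gives Ensembl identifiers, 0 of 17090 could be paired with a symbol, and the members are called here by their rank of mean CPM. The function of a member, its position and its sequence are therefore not reported, and markers of liver cell types could not be read. In bulk tissue, fewer cells of a type and less RNA per cell cannot be told apart.

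Total counts ranged from 29675688 to 47565345 per library. The lowest count of any member in any library was 3089, at which counting error alone is 1.80% of the value, so the spread between animals and not the depth limited the comparisons. TMM scaling factors, which correct for composition, lay between 0.937 and 1.05. The libraries did not differ by stage alone. Arousal early replicates 1 and 2, torpor late replicate 1 and summer euthermic replicate 2 stood apart from the other 5 libraries in several genes, a division that crosses the stages and has no counterpart in the labels. Torpor late replicate 3 also stood apart within its stage, as described further on.

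The members held about the same part of the library in each stage. Their summed counts took 50.6%, 46.8% and 49.4% of the 3 summer euthermic libraries. In torpor late they took 49.3%, 47.1% and 49.03%, and in arousal early 47.3%, 47.4% and 48.8%. The stage means were 48.9 ± 1.95%, 48.5 ± 1.20% and 47.8 ± 0.855% in that order (SD, n = 3 each). The 3 ranges overlapped, and the stage means lay closer together than the summer euthermic libraries did among themselves. Between 93 and 122 genes were enough to make up 50% of the counts of a library, with 93 in summer euthermic replicate 1 and 122 in torpor late replicate 2.

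**Figure D1:**
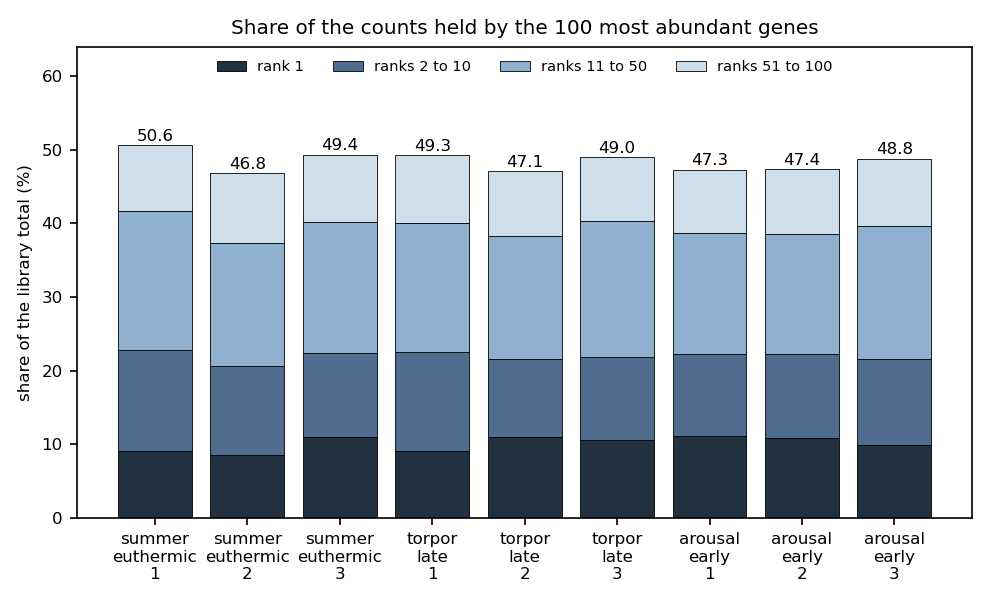
Share of the library total (y axis, percent) held by the 100 members in each of the 9 libraries (x axis), stacked by rank: rank 1, ranks 2 to 10, 11 to 50 and 51 to 100; the number above each bar is the sum. The bars reach 46.8% to 50.6% and their ranges overlap between stages.

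Within the list the counts were concentrated at the top. Ranks 2 to 10 took 10.7% to 13.7% of a library, ranks 11 to 50 took 16.3% to 18.8% and ranks 51 to 100 took 8.603% to 9.42%. Over all 9 libraries the last of these varied least (SD 0.272%). It stood at 9.18 ± 0.221% in summer euthermic, 8.88 ± 0.258% in torpor late and 8.87 ± 0.295% in arousal early (SD, n = 3 each). Within arousal early ranks 2 to 10 varied less, at 11.5 ± 0.237% (SD, n = 3). The following 100 genes by mean CPM took a further 8.17% to 9.04%. At the lower edge the levels ran on without a step. The genes at ranks 98, 99 and 100 had mean levels of 1278, 1273 and 1215 CPM, and the 3 genes just outside had 1205, 1156 and 1156 CPM. The rank 100 member was inside through 1 library, since it stood at 2873 CPM in summer euthermic replicate 2 and between 592 and 1635 CPM in the other 8.

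The set of abundant genes was largely shared by the stages. Taking the 100 highest genes of each stage alone, 95 were members in summer euthermic, 95 in torpor late and 95 in arousal early. Each stage supplied 3 of the 9 libraries behind the member list. The overlap of members with a stage list or a single library therefore follows in part from the rule. Overlaps between the stage lists themselves do not use the member list. The lists of torpor late and arousal early shared 94 genes (94% of each list), those of summer euthermic and arousal early 91 (91% of each), and those of summer euthermic and torpor late 90 (90% of each). In all 3 lists there were 88 genes, and all 100 members were among the 113 genes that reached at least 1 of them. In single libraries, 87 to 92 members stood within the top 100, with the fewest in torpor late replicate 3. Of the members, 70 were within the top 100 of all 9 libraries and 94 within the top 200.

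The first places were steady. The rank 1 member was the most abundant gene in all 9 libraries. It stood at 91178, 85318 and 109238 CPM in summer euthermic, at 89935, 109261 and 105073 CPM in torpor late, and at 110845, 107768 and 98961 CPM in arousal early, and the 3 stages overlapped. The rank 2 member was second in 8 libraries and fell behind the rank 3 member in torpor late replicate 3. The rank 3 member stayed between ranks 2 and 4, with levels from 18292 to 23184 CPM. Below that the order was looser. The rank 5 member ran from rank 3 in arousal early replicate 3, at 20716 CPM, to rank 12 in summer euthermic replicate 2, at 6400 CPM. The rank 9 member ran from rank 6 in torpor late replicate 3, at 13327 CPM, to rank 29 in torpor late replicate 1, at 4143 CPM. Only 5 of the first 10 members were within the top 10 of every library.

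Most members varied less than 2-fold over the whole experiment. The ratio behind this statement was computed for the members only, so it does not say whether they were steadier than other genes. The ratio of the highest to the lowest library had a median of 1.69 over the 100 members, was under 1.5 for 27 and under 2 for 62 of them. The steadiest member, at rank 59, lay between 2068 and 2446 CPM in all 9 libraries, a ratio of 1.18. The rank 29 member lay between 3859 and 4611 CPM (ratio 1.19) and the rank 26 member between 4280 and 5144 CPM (ratio 1.20). The ratio reached at least 3 in 20 members. It was highest at rank 16 (160), followed by ranks 80 (17.3), 44 (14.7) and 49 (12.6). Ranks 16, 49 and 80 were low in the 4 libraries on one side of the division. Rank 44 did not overlap between any 2 stages. Its lowest value, 418 CPM, was in summer euthermic replicate 2, which is also on that side, against 1157 and 1354 CPM in the rest of the stage.

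**Figure D2:**
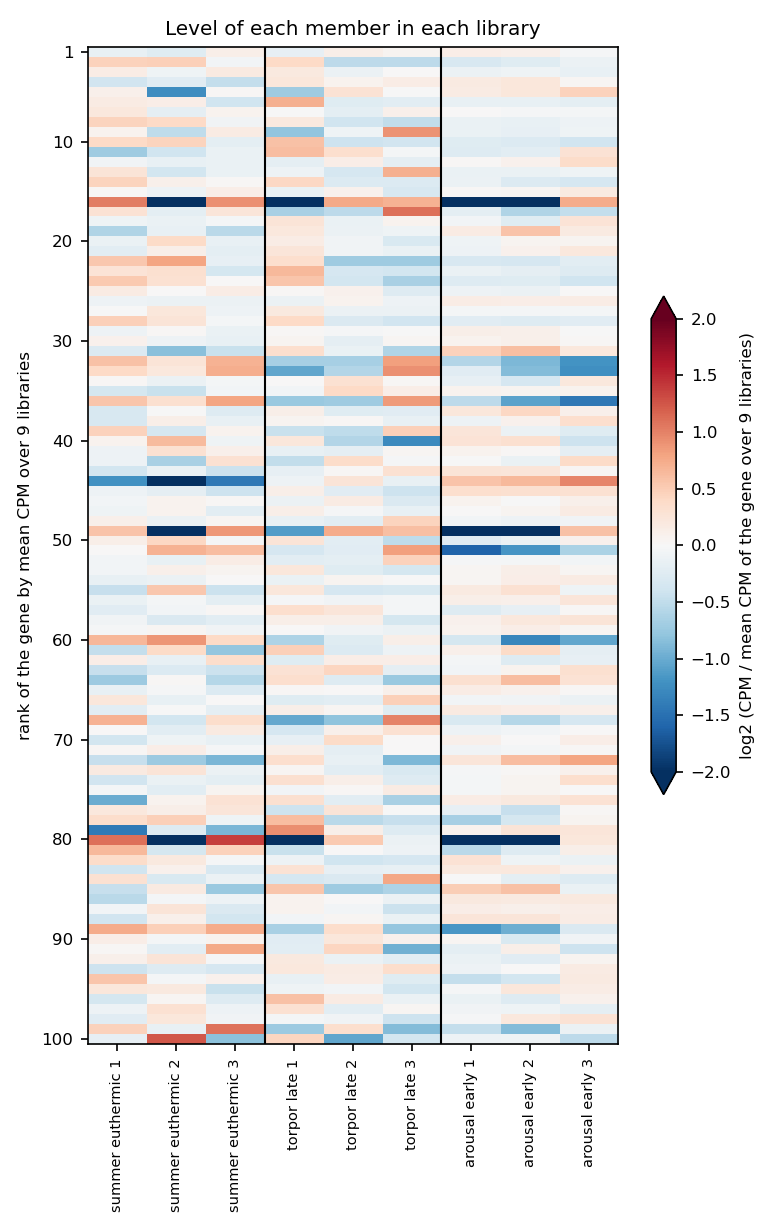
Level of each of the 100 members (rows, by rank of mean CPM) in each library (columns), as log2 of its CPM over its mean CPM in the 9 libraries; red is above and blue below the mean, and colours stop at 2 and -2. Most rows are pale, rank 44 is low in the 3 summer euthermic libraries, and ranks 16, 49 and 80 are low in 4 libraries that come from all 3 stages.

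The spread between animals differed from stage to stage. The median coefficient of variation of a member, the SD over 3 animals as a percent of their mean, was 15.96% in summer euthermic, 19.7% in torpor late and 8.47% in arousal early. For all 12780 tested genes the medians were 12.5%, 15.4% and 14.1% in the same order, and for the next 100 genes by abundance they were 11.99%, 17.0% and 10.5%. In arousal early 56 of the 100 members had a coefficient under 10%, against 29 in summer euthermic and 15 in torpor late. Among all genes tested the shares under 10% were 35.5% in arousal early, 38.4% in summer euthermic and 29.3% in torpor late. Only 3 animals stand behind each value, and this difference between stages was not tested.

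Differences between stages were tested with edgeR's quasi-likelihood test on all 12780 genes, with Benjamini-Hochberg adjustment over all of them, and a gene with an adjusted p-value under 0.05 is called. Among the 3 stages together, 2 of the 100 members were called, ranks 44 and 60, where 1.98% of all tested genes were. With no adjustment, 20 members had a p-value under 0.05, where 21.6% of all genes passed. limma-voom called 2 members (1.85% of all genes). These edgeR and limma-voom shares are near the background, so the number of calls by these 2 tools does not set the list apart. DESeq2 called 19 members, where it called 11.4% of all genes, so the tools differ on this point.

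Arousal early against summer euthermic sets hibernating animals beside animals outside hibernation at a similar mouth temperature. The arousal early animals had also been handled to wake them and held in the dark. It called 3 members, 2 higher and 1 lower, where 3.81% of all tested genes were called (2.21% higher and 1.6% lower). At an unadjusted p-value under 0.05, 18 members were higher and 7 lower, against 11.9% and 11.1% of all genes. A fitted change of at least 2-fold was seen in 11 members, against 5.99% of all genes. Among the 11 were ranks 16 and 80, which followed the division of the libraries that crosses the stages. The median log2 fold change of the members was -0.01 and that of all genes -0.00, and 48 of the 100 members had a value above 0.

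ENSMAUG00000020680, the rank 44 member, changed most in both level and rank among those called. It stood at 1354, 418 and 1157 CPM in summer euthermic, at 2905, 3744 and 2825 CPM in torpor late, and at 4644, 4915 and 6140 CPM in arousal early. No 2 stages overlapped, and all 3 arousal early libraries lay above all others. It rose 5.40-fold from summer euthermic to arousal early (log2 fold change 2.43, SE 0.40, edgeR adjusted p = 0.0191). Its rank went from 123 by the mean of summer euthermic, outside the first 100, to 41 in torpor late and 21 in arousal early. The change from summer euthermic to torpor late was 1.68 on the log2 scale (SE 0.39) and missed the threshold (edgeR adjusted p = 0.0644), and that from torpor late to arousal early was 0.76 (SE 0.38, edgeR adjusted p = 0.68). Summer euthermic replicate 2 was the lowest library. Without it the change from summer euthermic to torpor late was 1.30 on the log2 scale. The call in arousal early was lost without summer euthermic replicate 3 (edgeR adjusted p = 0.069) or without arousal early replicate 2 (0.0582), with log2 fold changes of 2.55 and 2.49. Over 18 alternatives the log2 fold change of arousal early against summer euthermic ran from 2.06 to 2.78.

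ENSMAUG00000018754, the rank 72 member, was also higher in arousal early. Summer euthermic libraries had 1339, 1118 and 979 CPM, torpor late libraries 2310, 1664 and 985 CPM, and arousal early libraries 2175, 2823 and 3166 CPM. Arousal early lay wholly above summer euthermic, while torpor late spanned both, with torpor late replicate 3 at the level of summer euthermic. The rise to arousal early was 2.42-fold (log2 fold change 1.27, SE 0.30, edgeR adjusted p = 0.0494), close to the threshold. Of 18 alternatives, 9 lost the call, among them the removal of any 1 of the 6 libraries compared (adjusted p from 0.0597 to 0.153), of torpor late replicate 2 (0.068) and upper-quartile scaling (0.0555). By stage mean its rank went from 108 to 78 and 46.

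ENSMAUG00000000101, the rank 60 member, fell. It stood at 3547, 4106 and 2956 CPM in summer euthermic, at 1455, 1881 and 2435 CPM in torpor late, and at 1743, 905 and 1086 CPM in arousal early. Both hibernating stages lay wholly below summer euthermic and overlapped with each other. From summer euthermic to arousal early it fell by 1.49 on the log2 scale (SE 0.27, edgeR adjusted p = 0.0271), and its rank by stage mean went from 38 to 95. In torpor late against summer euthermic the log2 fold change was -0.87 (SE 0.27, edgeR adjusted p = 0.117). The call was lost without arousal early replicate 2 (edgeR adjusted p = 0.0957), without arousal early replicate 3 (0.0574), or without any 1 of the 3 summer euthermic libraries (0.0595 to 0.069).

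**Figure D3:**
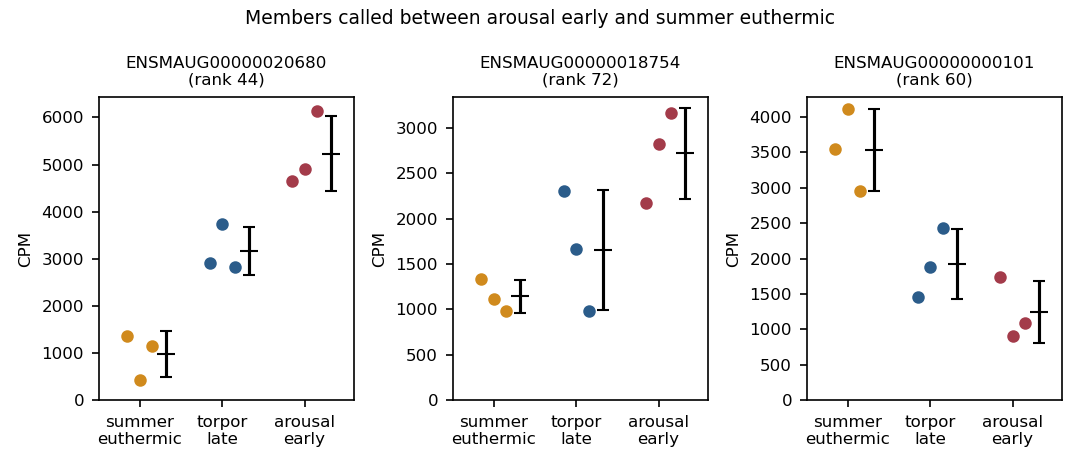
CPM (y axis, from 0) of the 3 called members in the 3 libraries of each stage (x axis; points are animals in replicate order, bars are mean ± SD, n = 3). The rank 44 member stands at 418 to 1354 CPM in summer euthermic and 4644 to 6140 CPM in arousal early, and the rank 60 member at 2956 to 4106 and 905 to 1743 CPM.

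A further 8 members had an edgeR adjusted p-value between 0.052 and 0.0896 in arousal early against summer euthermic and were not called. The share of all tested genes in this range was not computed, so this number is not set against a background. On the higher side, the rank 19 member had 3755 to 5140 CPM in summer euthermic and 6394 to 8477 CPM in arousal early (log2 fold change 0.76, edgeR adjusted p = 0.052). Rank 31 had 2320 to 3443 against 4791 to 6261 CPM, rank 4 had 11113 to 13263 against 15891 to 18008 CPM, and rank 45 had 2322 to 2873 against 3843 to 3888 CPM. On the lower side, the rank 89 member had 1962 to 2367 CPM in summer euthermic and 629 to 1154 CPM in arousal early (log2 fold change -1.39, edgeR adjusted p = 0.052). Rank 51 had 2604 to 4217 against 858 to 1670 CPM, rank 32 had 4752 to 6414 against 1730 to 2650 CPM, and rank 36 had 4638 to 6426 against 1391 to 2594 CPM. In each of these 8 members the 3 arousal early libraries lay to one side of the 3 summer euthermic libraries. They were picked by their p-values in this comparison, so such a separation was likely from the start. It was also seen in 28.4% of all tested genes.

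Counted over the list, the libraries of arousal early and summer euthermic did not overlap for 40 members, 25 higher and 15 lower in arousal early, where 28.4% of all tested genes did not overlap (12.5% higher and 15.9% lower). The 25 higher members differed by a median of 1.35-fold, with 3 at 2-fold or more. The 15 lower members differed by a median of 1.49-fold, with 6 at 2-fold or more, and 11 of the 15 were among the first 50 ranks. Of these 40 members, 3 passed the edgeR test. DESeq2, another count model, called 15 members higher and 5 lower, against 6.07% and 4.35% of all genes. limma-voom called 5 members, where it called 3.74% of all genes.

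Torpor late against summer euthermic called 0 members by edgeR, where 1.37% of all tested genes were called (0.673% higher and 0.696% lower). The smallest adjusted p-value was the 0.0644 of rank 44. At an unadjusted p-value under 0.05, 9 members were higher and 4 lower, 13 in all against 21.5% of all genes. limma-voom called 0 as well, and DESeq2 called 8, 6 higher and 2 lower, where it called 8.35% of all genes (4.18% higher and 4.17% lower). The stages did not overlap for 8 higher and 3 lower members, against 12.5% and 13.9% of all genes. A fitted change of at least 2-fold was seen in 3 members, against 5.67% of all genes. Among the next 100 genes by abundance, 22 had an unadjusted p-value under 0.05. The median log2 fold change was 0.03 over the members and 0.01 over all genes.

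The rank 4 member was the highest-ranked gene set apart in torpor late. It had 11892, 13263 and 11113 CPM in summer euthermic, 17987, 16274 and 17065 CPM in torpor late, and 17498, 18008 and 15891 CPM in arousal early. Torpor late and arousal early overlapped and both lay above summer euthermic, with log2 fold changes of 0.51 (SE 0.14, edgeR adjusted p = 0.0934) and 0.52 (SE 0.14, edgeR adjusted p = 0.0725). The rank 93 member stood at 1012, 1132 and 1071 CPM in summer euthermic and at 1568, 1516 and 1731 CPM in torpor late, 0.59 apart on the log2 scale (SE 0.14, edgeR adjusted p = 0.07). Rank 79 stood at 614, 1365 and 869 CPM and at 3110, 1771 and 1371 CPM, the last of which was barely above the highest summer euthermic library. Its log2 fold change was 1.15 (SE 0.33, edgeR adjusted p = 0.0995). None of these 3 members passed the threshold by edgeR, and DESeq2 called all 3, with adjusted p-values of 0.000145 for rank 4, 0.00119 for rank 93 and 0.00828 for rank 79.

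Arousal early against torpor late called 0 members by edgeR, as it called 0% of all tested genes, and DESeq2 and limma-voom also called 0 members (DESeq2 called 0.634% of all genes, 0.469% higher and 0.164% lower). With no adjustment, 3 members were higher and 4 lower at p under 0.05, 7 in all against 7.48% of all genes (4% higher and 3.48% lower). A fitted change of at least 2-fold was seen in 1 member, against 2.96% of all genes. Libraries did not overlap for 10 members higher and 1 lower in arousal early, where the shares among all genes were 4.48% and 7.3%. The 10 higher members differed by a median of 1.20-fold. The 1 lower member, rank 51, had 2049, 2223 and 4584 CPM in torpor late and 858, 1144 and 1670 CPM in arousal early (log2 fold change -1.25, SE 0.38, edgeR adjusted p = 0.607).

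**Figure D4:**
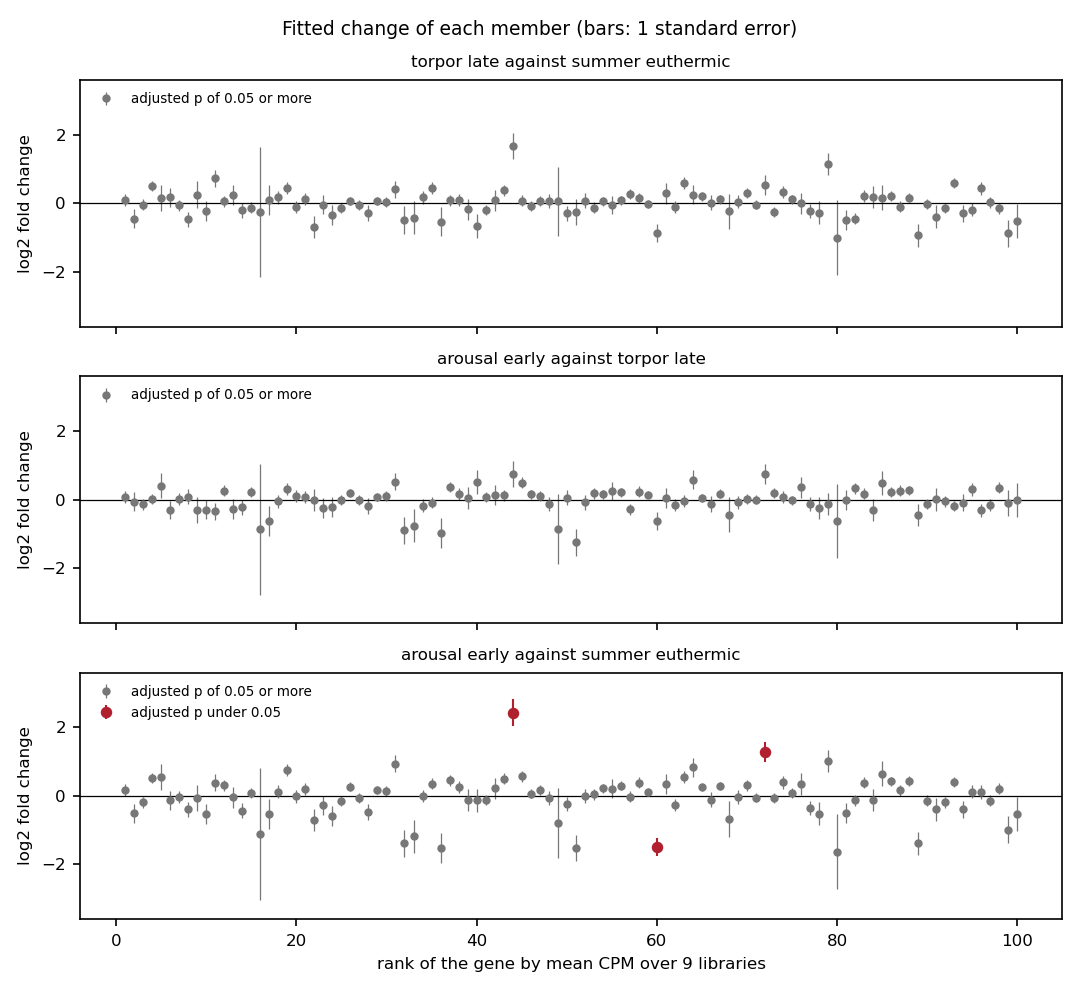
Fitted log2 fold change of each member (y axis) against its rank of mean CPM (x axis) in the 3 comparisons; bars are 1 standard error and red marks an edgeR adjusted p-value under 0.05. Only ranks 44, 60 and 72 are red, all in arousal early against summer euthermic, and rank 16 has the widest bars.

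Some of the members that varied most did so across the stages, and they were singled out after their values had been seen. The rank 16 member had 12086, 75.7 and 11127 CPM in summer euthermic, 176, 10045 and 9622 CPM in torpor late, and 128, 150 and 9905 CPM in arousal early. It was thus high in 5 libraries, at 9622 CPM or more, and low in 4, at 176 CPM or less, and no library lay between. Its place ran from rank 5 in summer euthermic replicates 1 and 3 to rank 1663 in summer euthermic replicate 2. The rank 49 member followed the same division, at 4139 to 5060 CPM in the 5 libraries and 401 to 1276 CPM in the 4. The rank 80 member did so too, at 1489 to 4229 CPM and 245 to 347 CPM. With 1 low library each in summer euthermic and torpor late and 2 in arousal early, the stage means of these genes vary with how many libraries of each kind a stage has. The log2 fold change of rank 16 between arousal early and summer euthermic, -1.12, had a standard error of 1.92.

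The summed share of these 3 members also carries this division. They took 1.53% to 2.04% of the 5 libraries and 0.0769% to 0.173% of the other 4. The share of all 100 members overlapped between the 2 sides, at 47.1% to 50.6% of the 5 libraries and 46.8% to 49.3% of the 4. The remaining 97 members took 47.2%, 47.3% and 47.2% of the 3 arousal early libraries, a mean of 47.2 ± 0.0274% (SD, n = 3). The means were 47.6 ± 0.987% in summer euthermic and 47.3 ± 1.87% in torpor late (SD, n = 3 each). With all 100 members the SD was 0.855% in arousal early, 1.95% in summer euthermic and 1.20% in torpor late. Taking out the 3 members thus narrowed the spread in arousal early and summer euthermic and widened it in torpor late. In all, 13 members did not overlap along the division, where 5.32% of all tested genes did not. The division was read from these data, so this is a description. For the other 10 members the means of the 2 sides differed by 1.09-fold to 2.04-fold, and the nearest libraries of the 2 sides by at most 1.25-fold.

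A second set varied together, with high and low libraries in both summer euthermic and torpor late. Of the members, 9 carry identifier numbers up to 35, at ranks 2, 6, 8, 10, 14, 22, 23, 24 and 28. The set was chosen after its values had been seen and is described without a test. Together they took 10.4%, 10.3% and 7.18% of the summer euthermic libraries, 10.8%, 5.85% and 5.73% of the torpor late libraries, and 6.63%, 6.67% and 6.79% of the arousal early libraries. Summer euthermic replicates 1 and 2 and torpor late replicate 1 were high, and the other 6 were lower. For each of the 9 genes these 3 libraries lay above the other 6. The summed share was also wholly lower in arousal early than in summer euthermic, while torpor late spanned both. Over the 9 libraries, log2 CPM values of the 36 pairs of these genes had a median Pearson correlation of 0.905, with the lowest at 0.634, where all 4950 pairs of members had a median of 0.01. All pairs come from the same libraries, and a share taken by some genes lowers the others.

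The rank 2 member leads this set. It had 38465, 39195 and 26921 CPM in summer euthermic, 36944, 19550 and 19504 CPM in torpor late, and 22415, 23818 and 25850 CPM in arousal early. Summer euthermic lay above arousal early with a narrow gap, and torpor late overlapped with both. Its log2 fold change in arousal early was -0.51 (SE 0.28, edgeR adjusted p = 0.308). Of the 15 members that lay wholly lower in arousal early than in summer euthermic, 7 belonged to this set and 8 did not. The rank 6 member was highest in torpor late replicate 1, at 15675 CPM, and lay between 7297 and 10691 CPM in the other 8 libraries.

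Another pattern set torpor late replicate 3 apart from the rest of its stage, in members likewise picked after their values had been seen. The rank 32 member had 5967, 4752 and 6414 CPM in summer euthermic, 2507, 2495 and 7017 CPM in torpor late, and 2650, 2129 and 1730 CPM in arousal early. Ranks 33 and 36 followed it, with pairwise correlations of log2 CPM from 0.968 to 0.996 over the 9 libraries. Torpor late replicate 3 was thus above all 3 summer euthermic libraries in each of these members, while torpor late replicates 1 and 2 were at the level of arousal early. Rank 36 was at 2228, 2287 and 6714 CPM in torpor late. The 3 members together took 1.66 ± 0.267% of summer euthermic libraries, 0.663%, 0.737% and 2.11% of torpor late libraries and 0.646 ± 0.192% of arousal early libraries (SD, n = 3 each).

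Torpor late replicate 3 was at least 2-fold above both other torpor late libraries in 7 members, at ranks 17, 32, 33, 36, 51, 68 and 84. Of all tested genes 0.61% were so placed. Rank 17 had 3677, 4019 and 12353 CPM in torpor late, and rank 68 had 978, 1135 and 3963 CPM. No member was 2-fold below in this library. Without it, 5 members instead of 1 were called lower in arousal early than in summer euthermic, although it belongs to neither stage and enters through the shared estimate of the spread and the filter on counts. In torpor late against summer euthermic the number called stayed at 0 without it. The part of this library in the members that did not pass in torpor late was not tested further.

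**Figure D5:**
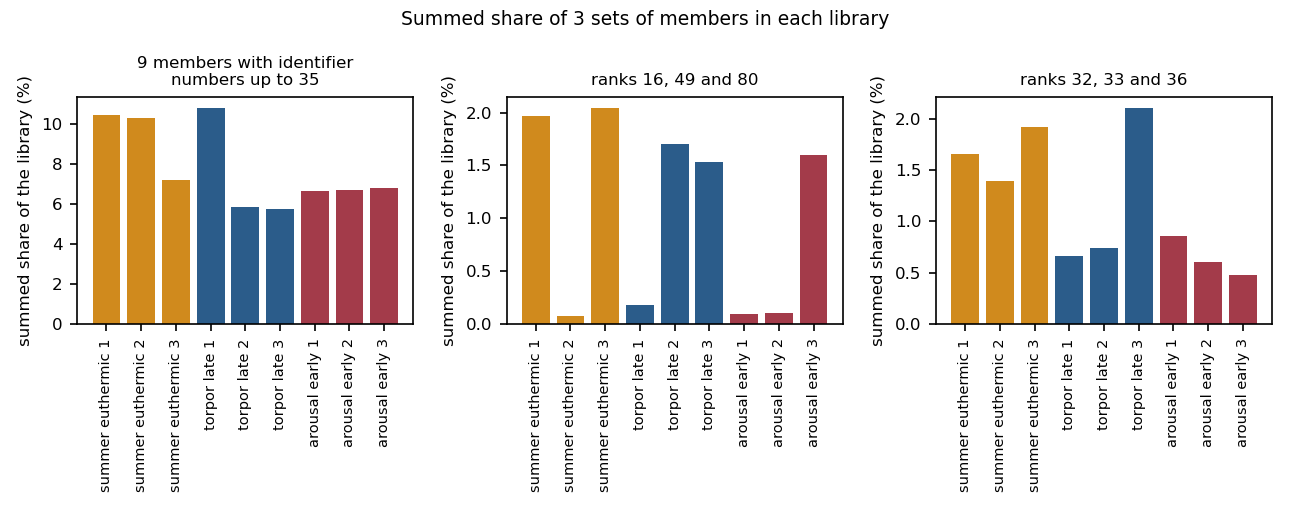
Summed share of the library (y axis, percent, from 0) of 3 sets of members in each library (x axis, coloured by stage): the 9 members with identifier numbers up to 35, ranks 16, 49 and 80, and ranks 32, 33 and 36. The first set is at 10.3% to 10.8% in 3 libraries and 5.73% to 7.18% in 6, the next at 1.53% or more in 5 and 0.173% or less in 4, and the last at 1.39% to 2.11% in summer euthermic and torpor late replicate 3 and at 0.856% or less elsewhere.

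Ranks by stage mean moved within 10 places for 46 of the 100 members, and the median distance between the highest and the lowest stage rank was 13. The largest distance, 108 places, was that of rank 80, which followed the division of the libraries. Rank 44 came next with 102 places, then rank 89 with 98. Rank 89 went from 59 in summer euthermic to 102 in torpor late and 157 in arousal early, at 2359, 1962 and 2367, then 901, 1797 and 827, then 629, 720 and 1154 CPM. Summer euthermic lay above both other stages in this gene. Rank 99 went from 72 to 126 and 137, but its summer euthermic libraries, at 1746, 1146 and 2709 CPM, overlapped with both other stages.

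Compared with the genes next in abundance, the members were not called more often by edgeR. In arousal early against summer euthermic, 3 of 100 members, 6 of the next 100 genes, 27 of the 300 after those and 33 of the following 500 were called. The median size of the log2 fold change, without sign, was 0.30 for the members and 0.23, 0.23 and 0.20 in these 3 tiers, in the same order. The median SD of log2 CPM within a stage was 0.22 for members, and 0.22, 0.17 and 0.16 in the 3 tiers. These are descriptions, and no test of the difference between tiers was made.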

How the data were processed

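Liver RNA of 9 hamsters was sequenced from stranded poly(A) libraries (437 ng of RNA, single-end reads of 75 bp), per the labels' protocols. The authors deposited 1 table of read counts per Ensembl gene, which were not normalized. STAR 2.7.0f is named in the submitters' processing notes, without its role. The counting program, strand setting, genome build and annotation are not given in the sources used here, so overlapping genes and near-identical copies may share reads. All 17090 rows carry an identifier, and 0 have no count.

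Each column was assigned through the animal number that the labels hold. Replicates 1 to 3 are names only, because no numbering was supplied. Levels are CPM on column totals. Counts were tested in R 4.3.3 with edgeR 4.0.16 (filterByExpr, TMM, glmQLFit and glmQLFTest, 1 coefficient per stage, all 9 libraries), with limma 3.58.1 and DESeq2 1.42.0 as alternatives. Standard errors were taken as |log2 fold change| over √F. The code was tested on simulated data.

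The members, the sets and the tests were chosen with earlier results of these data known. Members to be described were the first in rank, those called, those at the lower edge, and those with the largest and smallest spread or change of rank. Without symbols, at most 2 identifiers in each direction are printed, from the called members; other members were named after their values were seen. Lists of genes by function and cell type markers, fixed by symbol, were not run. An exact test of 1 value in 3 animals against 3 cannot go below p = 0.1, so single values were not tested that way.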

Additional observations from a re-analysis of the deposited data

How the results depend on the processing

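Which genes are members depended little on the definition: 98 were shared with a list by median CPM, 99 with one on TMM-adjusted library sizes, and 99 to 100 when 1 library was left out. The share of the library was 43.6%, 42.7% and 41.6% (summer euthermic, torpor late, arousal early) without the most abundant gene in members and library total, 39.8%, 39.6% and 39.0% for 50 genes, and 57.3%, 57.1% and 56.5% for 200 genes. Without the 9 members with identifier numbers up to 35, added after seeing the data, it was 39.7%, 41.0% and 41.1% of the full total, and 43.7%, 44.3% and 44.1% with these genes also taken out of the total. Summer euthermic was then lowest and not highest, but the stages overlapped. Of the full total, its libraries ran from 36.6% to 42.2% and those of arousal early from 40.7% to 42.0%. These 9 genes were picked after their values had been seen, so the change of order follows partly from the choice. Leaving out 1 library gave 48.1% to 50.01%, 48.1% to 49.2% and 47.3% to 48.1%.

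Counts of called members were small. Those of arousal early against torpor late stayed at 0 in every alternative, and those of torpor late against summer euthermic in all but DESeq2 and the covariate model below. Over the results on membership, calls and shares, 127 values were near the main one and 54 moved. For any stage difference (2 members) there were 0 at a threshold of 0.01, 19 with DESeq2 and 1 with a covariate for the division of the libraries. In torpor late against summer euthermic (0), DESeq2 gave 6 higher and 2 lower, and the model with the covariate 1 higher, rank 44 (edgeR adjusted p = 0.0306). In arousal early against summer euthermic, the 2 higher members became 0 at 0.01, 1 with upper-quartile scaling, 1 with the covariate and 15 with DESeq2. The 1 lower member became 0 at 0.01, 2 with library sizes taken without the members, with limma-voom, with no filter, with at least 10 counts in every library and with the covariate, 3 with only the 2 stages compared, and 5 with DESeq2. Leaving out 1 library gave 0 to 3 members for any stage difference, and 0 to 3 higher and 0 to 5 lower in arousal early against summer euthermic. Both were 0 without summer euthermic replicate 3 or arousal early replicate 2. It gave 0 to 0 in both directions in the other comparisons. Within the 5 libraries of one side of the division, also added, torpor late against summer euthermic called 0. For all of these, the cause was not tested.

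For the 15 fold changes with an adjusted p under 0.1, 274 further values were computed and the direction was the same in all: 28 newly passed the threshold, 16 no longer did and 230 were as before. The 15 were picked by their p-values in these same data. A kept direction was therefore likely from the start and is not independent support. The design is unpaired, because every library came from a different animal, so no paired analysis was made.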
